A study of Arabidopsis thaliana with 24 samples.

Results

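The 9 genes described here encode WRKY transcription factors of groups I and II that are known for early roles in Arabidopsis defence. They were chosen by locus identifier, and all 9 of them were found among the 21407 loci of the read count table. They are WRKY25 (AT2G30250) and WRKY33 (AT2G38470) of group I, WRKY18 (AT4G31800), WRKY40 (AT1G80840) and WRKY60 (AT2G25000) of group IIa, WRKY6 (AT1G62300) of group IIb, WRKY11 (AT4G31550) of group IId, and WRKY22 (AT4G01250) and WRKY29 (AT4G23550) of group IIe. All 9 passed the filter on low counts, and the lowest count of any of them in a library was 82.

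The libraries came from whole Arabidopsis thaliana seedlings, ecotype Col-0, 2 weeks old, of wild type (WT) or of plants that overexpress the long noncoding RNA ELENA1 (OX). Each genotype was sampled untreated (0 h) and 1 h, 6 h or 12 h after transfer from solid to liquid medium with 5 µM elf18. This peptide, taken from the start of the bacterial protein EF-Tu, is perceived by the receptor kinase EFR. Each of the 8 groups had 3 biological replicates. The sources used here do not give the promoter of the ELENA1 transgene or the number of independent lines, and ELENA1 itself was not analysed here. The labels name no seedlings moved to liquid medium without peptide. In comparisons with 0 h, an effect of elf18 and effects of the move and of the hour of harvest therefore cannot be told apart. The labels' protocols have the replicates of a condition pooled for sequencing but name no run, and a run effect was not tested.

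WRKY proteins bind the W-box in promoters, a short DNA word with the core TTGAC, through a domain named after its WRKYGQK peptide. Group I proteins carry a pair of such domains, and group II proteins a single one. In pattern-triggered immunity, receptors such as EFR activate mitogen-activated protein kinase cascades, and several WRKY proteins act downstream of the kinases or are phosphorylated by them. Many WRKY genes carry W-boxes in their own promoters, so that the family is known for regulating its own members.

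Library totals ran from 18767661 to 85230211 counts, with replicate 3 lowest in each of the 8 groups, and 21015 loci had enough counts to be tested. Levels are given as CPM, read counts scaled to library size, and as mean ± standard deviation (SD). A gene was called when the Benjamini-Hochberg adjusted p of edgeR's quasi-likelihood test, adjusted over all 21015 loci, was under 0.05. Log2 fold changes carry the standard error (SE) of the fit, and each adjusted p in the following paragraphs is from that test. Leaf, root, guard cell lineage, and meristem and epidermis markers were detected in every group, with no marker at 0. The summed level of the 3 leaf mesophyll markers ran from 19100 to 23400 CPM in WT at 1 h and from 3330 to 4280 CPM in WT at 12 h. In OX it ran from 22500 to 26900 CPM at 1 h and from 3250 to 3630 CPM at 12 h. The part of this shift in the time courses below was not tested. In whole seedlings, fewer cells of a type and less RNA per cell cannot be told apart.

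In both genotypes 8 of the 9 WRKY transcripts rose within 1 h and WRKY60 fell. The largest rise was that of WRKY22, from 18.3 to 769 CPM in WT, and the smallest that of WRKY18, from 47 to 62.7 CPM. After 1 h the early transcripts declined to differing degrees, while WRKY60 climbed to its highest level at 12 h. Against 0 h in WT, 8 members were called higher and 1 lower at 1 h, where 67.8% of all tested loci were called, 35.2% higher and 32.6% lower. Since so many loci changed, a call is weak information here, and the sizes of the changes are given for each member. In OX the counts at 1 h were again 8 higher and 1 lower, beside 68.8% of all loci called, 35.2% higher and 33.7% lower. At 6 h 7 members were higher and 0 lower in each genotype, beside 57.8% of loci called in WT (29.8% higher, 28.1% lower) and 58.9% in OX (30.1% higher, 28.8% lower). At 12 h 7 members were higher and 0 lower in WT, beside 72.5% of loci called (35.2% higher, 37.4% lower). In OX 9 were higher, beside 70% called (34.9% higher, 35.2% lower). The members' median log2 fold change at 1 h was 1.73 in WT and 2.39 in OX, while the median over all tested loci was 0.01 in each.

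**Figure D1:**
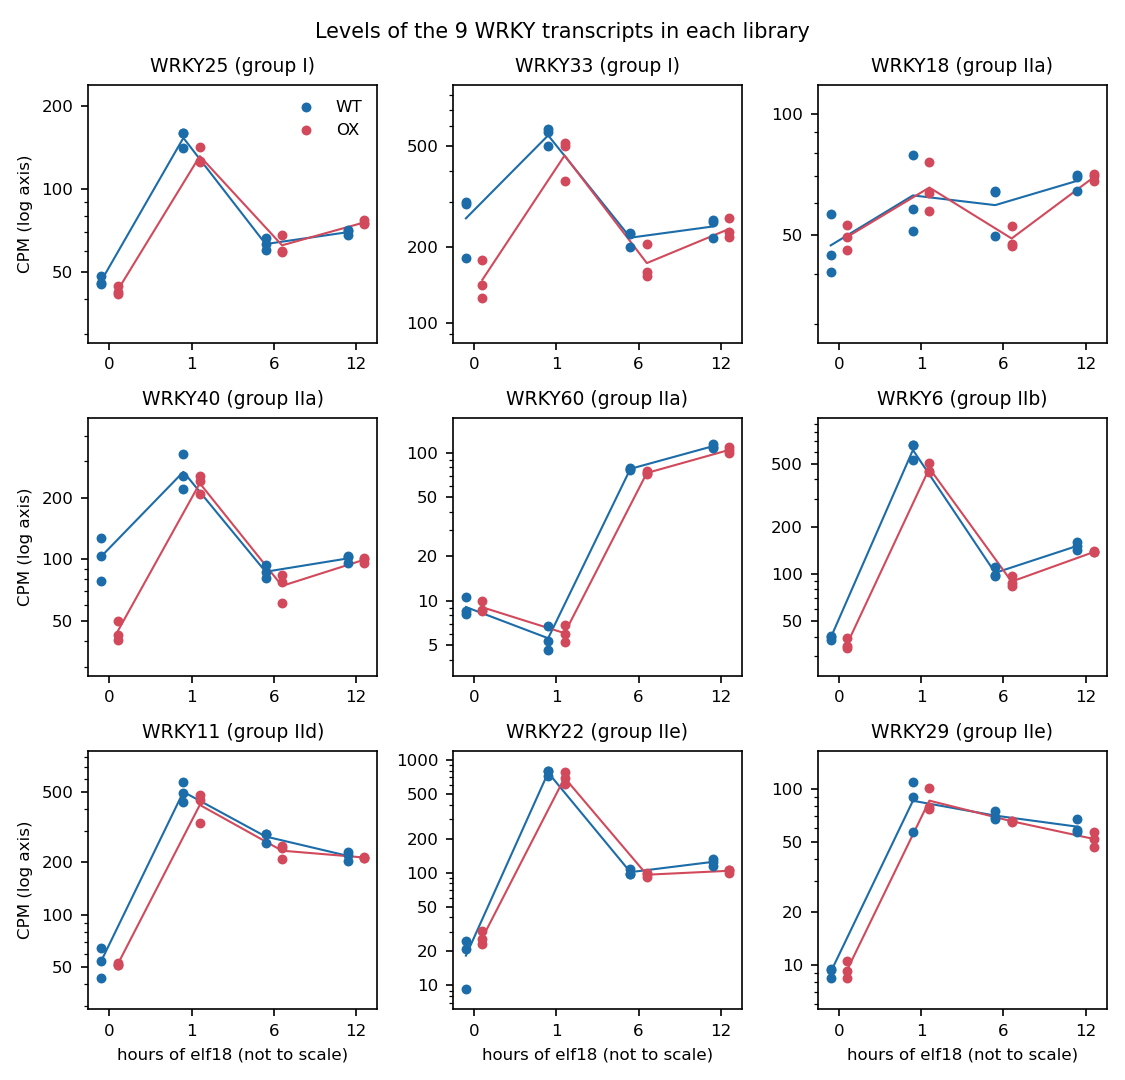
Level of each of the 9 WRKY transcripts in CPM on a log axis (1 panel a gene, points are the 24 libraries, lines join group means, blue WT and red OX) against hours of elf18, with times spaced evenly. WRKY60 is lowest at 1 h and highest at 12 h, and in WRKY40 the OX libraries at 0 h lie between 40.7 and 50.4 CPM, below all WT libraries at that time.

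Of the group I genes, WRKY33 is required for synthesis of the antimicrobial compound camalexin and for resistance to necrotrophic fungi, and its protein is phosphorylated by the kinases MPK3 and MPK6. In WT its transcript was at 296, 181 and 301 CPM at 0 h, at 571, 587 and 502 CPM at 1 h, at 225, 227 and 200 CPM at 6 h, and at 251, 255 and 216 CPM at 12 h. In OX it was at 141, 178 and 125 CPM at 0 h, at 365, 514 and 503 CPM at 1 h, at 153, 205 and 159 CPM at 6 h, and at 228, 259 and 219 CPM at 12 h. The 1 h libraries were the highest in both genotypes, and the untreated OX libraries were the lowest of all groups by their mean. WRKY33 rose at 1 h by 1.09 ± 0.17 (SE, n = 3) in WT (adjusted p = 6e-06) and by 1.64 ± 0.17 in OX (adjusted p = 2.3e-08). By 6 h it had fallen from the 1 h level by 1.35 ± 0.17 in WT and by 1.42 ± 0.17 in OX (SE, adjusted p = 2.7e-07 and 1.5e-07). In WT the later levels were not called different from 0 h, with log2 fold changes of -0.25 ± 0.17 after 6 h (SE, adjusted p = 0.2) and -0.11 ± 0.17 after 12 h (adjusted p = 0.58). Without WT 0 h replicate 2, the lowest WT library of that time, the 6 h value was -0.45 (adjusted p = 0.016, range over the alternatives 0.016 to 0.58). In OX the 6 h level was not called different from 0 h either (0.22 ± 0.17, SE, adjusted p = 0.28, overlapping libraries), and the 12 h level was above 0 h by 0.67 ± 0.17 (SE, adjusted p = 0.0012). OX rose again between 6 h and 12 h by 0.45 ± 0.17 (SE, adjusted p = 0.036). This call was lost without OX 6 h replicate 1 (0.12) or 3 (0.13) or without OX 12 h replicate 1 (0.065) or 2 (0.13). Leaving out 3 libraries with a steep trend of counts with transcript length lost it too (0.095). In the order of the 8 groups, the libraries of WT and OX at 1 h overlapped with each other and stood apart from the rest, and every further neighbour in the order overlapped with the next.

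WRKY25, the closest group I relative of WRKY33 among the members, is known for roles in heat and salt tolerance and binds, like WRKY33, to the kinase substrate MKS1. Its levels were narrow within groups, with a median coefficient of variation of 4.37%. WT libraries held 45.2 to 48.5 CPM at 0 h, 141 to 160 CPM at 1 h, 60.3 to 66.5 CPM at 6 h and 68.1 to 71 CPM at 12 h. The corresponding OX libraries held 41.7 to 44.7, 126 to 143, 59.5 to 68.5 and 74.6 to 77.2 CPM. WRKY25 was thus highest at 1 h, and at 6 h and 12 h it stayed above its untreated range in both genotypes. The rise at 1 h was 1.73 ± 0.07 in WT and 1.62 ± 0.07 in OX (SE, n = 3, adjusted p = 2.7e-15 and 1.2e-14). At 12 h WRKY25 was still higher than at 0 h by 0.59 ± 0.07 in WT and 0.82 ± 0.07 in OX (SE, adjusted p = 1.4e-07 and 8.9e-10).

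The group IIa genes WRKY18, WRKY40 and WRKY60 encode proteins that form complexes with one another and act in part redundantly in resistance to powdery mildew and in the abscisic acid response. Their transcripts followed 3 different courses. WRKY40 resembled WRKY33. In WT it was at 104, 78.8 and 127 CPM at 0 h, at 254, 326 and 220 CPM at 1 h, at 86.6, 93.5 and 81.2 CPM at 6 h, and at 104, 103 and 96.4 CPM at 12 h. The untreated OX libraries held 42.7, 50.4 and 40.7 CPM, followed by 208, 254 and 242 CPM at 1 h, 77.8, 83.7 and 61.5 CPM at 6 h, and 101, 102 and 96.1 CPM at 12 h. All 3 untreated OX libraries were below every other library of the series, and the 1 h libraries of both genotypes were the highest. WRKY40 rose at 1 h by 1.37 ± 0.15 in WT and 2.39 ± 0.15 in OX (SE, n = 3, adjusted p = 3.6e-08 and 6.9e-12). From 1 h to 6 h it fell by 1.61 ± 0.15 and 1.66 ± 0.15 (SE, adjusted p = 2.2e-09 and 1.8e-09). The WT levels at 6 h and 12 h were not called different from 0 h (-0.24 ± 0.15 and -0.03 ± 0.15, SE, adjusted p = 0.16 and 0.86). Here too, leaving out WT 0 h replicate 2 gave a call at 6 h (-0.40, adjusted p = 0.021, range 0.021 to 0.74). The OX levels stayed above 0 h by 0.74 ± 0.15 after 6 h (SE, adjusted p = 0.0002) and 1.16 ± 0.15 after 12 h (adjusted p = 4.2e-07). The OX rise of WRKY40 from 6 h to 12 h (0.42 ± 0.15, SE, adjusted p = 0.028) was lost without OX 6 h replicate 3 (0.16) or without OX 12 h replicate 1 (0.07), 2 (0.071) or 3 (0.051).

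WRKY60 ran opposite to the other members in the first hour. Its transcript was at 10.6, 8.09 and 8.55 CPM in WT at 0 h, at 5.33, 6.77 and 4.67 CPM at 1 h, at 76.9, 78.3 and 78.5 CPM at 6 h, and at 109, 115 and 108 CPM at 12 h. The OX libraries held 8.63, 8.5 and 10 CPM at 0 h, 6.83, 6.01 and 5.31 CPM at 1 h, 71.6, 72.5 and 75 CPM at 6 h, and 105, 109 and 99.5 CPM at 12 h. Within each genotype no library of any time overlapped with a library of another time. WRKY60 fell at 1 h by 0.69 ± 0.12 in WT and by 0.55 ± 0.11 in OX (SE, n = 3, adjusted p = 1.9e-05 and 0.00019). It then rose between 1 h and 6 h by 3.78 ± 0.12 in WT and 3.58 ± 0.11 in OX (SE, adjusted p = 2.9e-17 and 6e-17). A further rise between 6 h and 12 h was 0.51 ± 0.10 in WT and 0.52 ± 0.10 in OX (SE, adjusted p = 0.00018 and 0.00021). The group mean at 12 h in WT, 111 ± 3.59 CPM (SD, n = 3), was 19.9 times the mean at 1 h, 5.59 ± 1.07 CPM.

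WRKY18 varied least, with a ratio of 1.48 between its highest and lowest group means. WT libraries held 40.4 to 56.2 CPM at 0 h, 51.1 to 79 CPM at 1 h, 49.8 to 64.2 CPM at 6 h and 64.3 to 70.5 CPM at 12 h. OX libraries held 45.8 to 53, 57.4 to 76, 47 to 52.5 and 68.2 to 70.8 CPM at those times. Only at 12 h did both genotypes lie wholly above their untreated range with calls that held in all alternatives. The change at 12 h was 0.54 ± 0.14 in WT and 0.50 ± 0.14 in OX (SE, n = 3, adjusted p = 0.0014 and 0.0028). At 1 h WRKY18 was higher by 0.42 ± 0.14 in WT and 0.41 ± 0.14 in OX (SE, adjusted p = 0.011 for both). The WT call was lost without WT 0 h replicate 2 (0.065) or WT 1 h replicate 2 (0.13). A fit on the compared groups alone lost it too (0.078). The OX call was lost without OX 1 h replicate 2 (0.06). At 6 h WT was higher than at 0 h by 0.34 ± 0.14 (SE, adjusted p = 0.04). That call was lost without any of WT 0 h replicates 2 (0.18) and 3 (0.1) and WT 6 h replicates 1 (0.13) and 2 (0.12). Fits on the compared groups alone (0.068) and on libraries thinned to the smallest total (0.091) lost it too. In the order of the 8 groups, each group's WRKY18 libraries overlapped with those of the next.

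The promoters of WRKY33, WRKY40 and WRKY60 are shown because WRKY40 was the locus whose pattern was most like that of WRKY33, and WRKY60 ran apart from both. Each is the 300 bases before the annotated gene start, read 5′ to 3′ on the gene's strand from the RefSeq genome and annotation, with the W-box core TTGAC or its reverse complement GTCAA in capitals.
WRKY33 promoter, TAIR10.1 chr2:16107935-16108234, plus strand: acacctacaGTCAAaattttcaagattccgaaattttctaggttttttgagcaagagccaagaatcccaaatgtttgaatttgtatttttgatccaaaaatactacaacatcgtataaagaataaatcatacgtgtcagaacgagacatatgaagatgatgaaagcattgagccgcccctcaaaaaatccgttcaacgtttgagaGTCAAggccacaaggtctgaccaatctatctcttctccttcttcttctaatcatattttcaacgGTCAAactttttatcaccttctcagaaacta
WRKY40 promoter, TAIR10.1 chr1:30383261-30383560, plus strand: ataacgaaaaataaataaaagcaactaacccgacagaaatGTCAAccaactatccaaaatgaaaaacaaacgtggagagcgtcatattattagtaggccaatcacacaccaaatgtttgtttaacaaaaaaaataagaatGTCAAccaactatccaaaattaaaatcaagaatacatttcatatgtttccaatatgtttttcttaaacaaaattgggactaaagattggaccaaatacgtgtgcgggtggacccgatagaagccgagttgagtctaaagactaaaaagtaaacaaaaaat
WRKY60 promoter, TAIR10.1 chr2:10629362-10629661, plus strand: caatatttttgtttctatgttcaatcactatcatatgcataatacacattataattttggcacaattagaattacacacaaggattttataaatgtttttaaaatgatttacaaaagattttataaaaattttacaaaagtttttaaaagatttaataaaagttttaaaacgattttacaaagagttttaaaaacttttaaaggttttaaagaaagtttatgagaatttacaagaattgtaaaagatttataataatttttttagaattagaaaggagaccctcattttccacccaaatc
The WRKY33 window held 3 cores, and each was part of the full word TTGACC or TTGACT on either strand. At least 3 full words were found in 1.57% of the 27443 windows of protein-coding genes. The WRKY40 window held 2 cores and 0 full words, and the WRKY60 window held 0 cores. At least 1 core was found in 7 of the 9 members' windows, beside 50.4% of all windows, and at least 1 full word in 4 of 9, beside 32.3%. The full words contain the core, so these counts overlap. In the 1000 bases before the gene start WRKY11 held 8 cores, WRKY40 held 7, WRKY6, WRKY29, WRKY33 and WRKY60 held 4 each, WRKY18 and WRKY22 held 3 each and WRKY25 held 2. The median over all windows of that length was 2 cores, and 1.45% held 7 or more. These matches describe letters in a window, not binding.

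The transcripts of groups IIb, IId and IIe rose further than those of groups I and IIa at 1 h. WRKY6 is known in senescence and defence and as a regulator of phosphate transport. In WT it was at 39.6, 38 and 40.5 CPM at 0 h and at 656, 656 and 530 CPM at 1 h, followed by 97.3 to 110 CPM at 6 h and 143 to 159 CPM at 12 h. In OX it was at 33.8, 39.1 and 35 CPM at 0 h and at 447, 511 and 451 CPM at 1 h, followed by 83.6 to 97.5 CPM at 6 h and 137 to 139 CPM at 12 h. The order of times was the same in both genotypes, with 1 h highest, then 12 h, 6 h and 0 h, and no overlap between times. WRKY6 rose at 1 h by 3.96 ± 0.10 in WT and 3.71 ± 0.10 in OX (SE, n = 3, adjusted p = 1.1e-18 and 5e-18). It then fell to 6 h by 2.59 ± 0.09 and 2.39 ± 0.09 and rose again to 12 h by 0.57 ± 0.09 and 0.62 ± 0.09 (SE, adjusted p from 2.5e-16 to 1.6e-05).

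WRKY22 and WRKY29 are placed downstream of the MPK3 and MPK6 cascade in models of flagellin signalling. WRKY22 was at 24.8, 9.24 and 21 CPM in untreated WT and at 25.7, 23.1 and 30.3 CPM in untreated OX. At 1 h it reached 798, 792 and 717 CPM in WT and 779, 684 and 613 CPM in OX, so that the groups of the same time overlapped. It stood at 96.6 to 108 CPM in WT and 91.2 to 98.9 CPM in OX at 6 h, and at 115 to 133 and 100 to 106 CPM at 12 h. WT 0 h replicate 2 was the lowest library. The rise of WRKY22 at 1 h was 5.40 ± 0.23 in WT and 4.72 ± 0.22 in OX (SE, n = 3, adjusted p = 4.7e-15 and 3.5e-14). Its decline to 6 h was steep, by 2.93 ± 0.20 and 2.85 ± 0.20 (SE, adjusted p = 2.2e-11 and 4.4e-11). WRKY29, in contrast, kept most of its rise. WT libraries of WRKY29 held 8.44 to 9.5 CPM at 0 h, 57.2 to 110 CPM at 1 h, 67.4 to 75.1 CPM at 6 h and 57 to 67.7 CPM at 12 h. OX libraries held 8.41 to 10.5, 77.3 to 102, 65.2 to 66.2 and 46.8 to 57.3 CPM. All treated libraries of WRKY29 lay above all untreated ones, and in WT the treated times overlapped. The change of WRKY29 against 0 h was 3.24 ± 0.17, 2.96 ± 0.17 and 2.75 ± 0.17 in WT at 1 h, 6 h and 12 h (SE, adjusted p from 1.2e-13 to 1.9e-12). In OX it was 3.21 ± 0.17, 2.82 ± 0.17 and 2.49 ± 0.17 (SE, adjusted p from 2e-13 to 9.8e-12). From 1 h to 6 h WRKY29 fell in OX by 0.39 ± 0.15 (SE, adjusted p = 0.026), lost without OX 1 h replicate 2 (0.14) or OX 6 h replicate 2 (0.05), and changed by -0.29 ± 0.15 in WT (adjusted p = 0.094). Without WT 1 h replicate 3, the lowest WT library of that time, the WT value was -0.51 (adjusted p = 0.00051, range 0.00051 to 0.63).

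WRKY11, a known negative regulator of basal resistance together with its relative WRKY17, rose about as far as WRKY29. WT libraries held 43.4 to 64.7 CPM at 0 h, 441 to 575 CPM at 1 h, 258 to 291 CPM at 6 h and 203 to 228 CPM at 12 h. OX libraries held 51.4 to 53, 336 to 484, 208 to 247 and 211 to 215 CPM. WRKY11 remained well above its untreated range at 12 h in both genotypes. From 1 h to 6 h it fell by 0.85 ± 0.13 in WT and by 0.87 ± 0.13 in OX (SE, adjusted p = 3.9e-06 and 3.2e-06). Its change against 0 h at 1 h, 6 h and 12 h was 3.21 ± 0.14, 2.37 ± 0.13 and 2.00 ± 0.13 in WT and 3.03 ± 0.14, 2.16 ± 0.13 and 2.03 ± 0.13 in OX (SE, n = 3, adjusted p from 5.1e-15 to 1e-11). The WT decline from 6 h to 12 h (-0.37 ± 0.13, SE, adjusted p = 0.019) was lost without WT 6 h replicate 1 (0.067) or 2 (0.058) or WT 12 h replicate 3 (0.076).

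**Figure D2:**
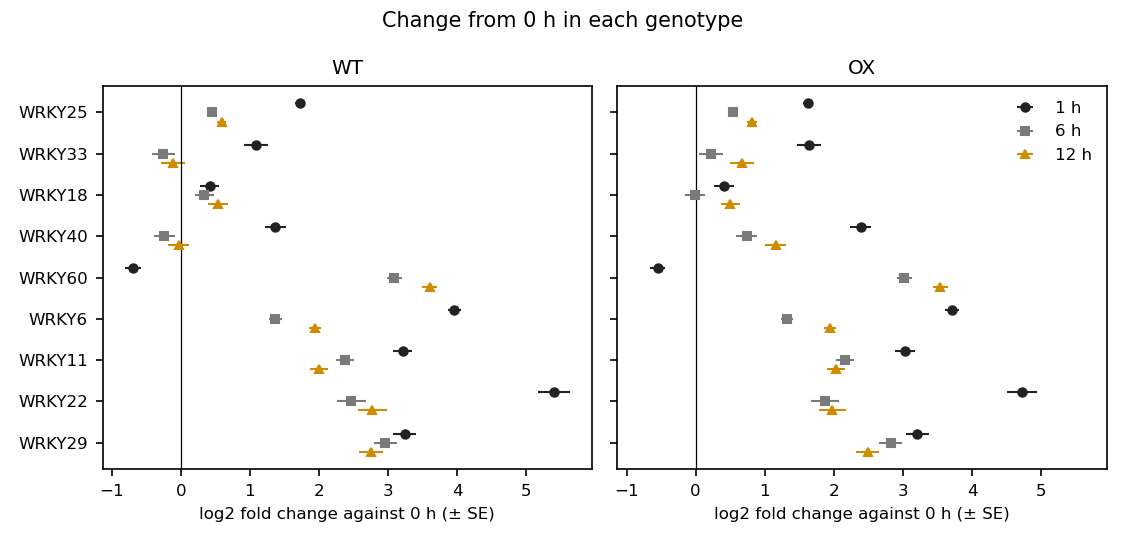
Log2 fold change against 0 h at 1 h (black circles), 6 h (grey squares) and 12 h (orange triangles) for the 9 WRKY genes in WT (left) and OX (right), with bars for the SE. At 1 h WRKY22 has the largest change (5.40 in WT, 4.72 in OX) and WRKY60 lies below 0 in both panels, while at 6 h and 12 h WRKY60 is above 3.

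Between later times, 1 member was called higher and 6 lower from 1 h to 6 h in WT, beside 69.1% of all loci called, 34.7% higher and 34.4% lower. In OX 1 was higher and 8 lower, beside 67.9% called, 34.4% higher and 33.5% lower. WRKY60 was the higher member in both genotypes. From 6 h to 12 h 2 members were higher and 1 lower in WT, beside 52.9% of loci called, 26.4% higher and 26.5% lower. In OX 6 were higher and 0 lower, beside 37.9% of loci called, 20.2% higher and 17.7% lower. WRKY6 and WRKY60 were higher in both genotypes, and WRKY18, WRKY25, WRKY33 and WRKY40 were called in OX alone. A difference between the genotypes in this late step was not tested.

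Levels were compared between genes on the per-length scale of the deposited FPKM values (fragments scaled by transcript length and library size), which are the authors' values, 1 for each group with no spread. In untreated WT the authors' FPKM was highest for WRKY33 (149), followed by WRKY40 (98.6) and WRKY11 (61), and lowest for WRKY60 (8.83). At 1 h in WT the order of FPKM was WRKY22 (770), WRKY11 (577), WRKY6 (336), WRKY33 (326) and WRKY40 (258), with WRKY60 last (5.49). At 12 h WRKY11 was highest in FPKM (251), and WRKY60 (110) stood above WRKY40 (99.5) and WRKY18 (64.5). The group IIa member of lowest FPKM before treatment was therefore the highest of the 3 at 12 h.

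The comparison of OX with WT asked whether overexpression of ELENA1 changed these transcripts before and during the response. Before treatment WRKY40 and WRKY33 were lower in OX, and the other 7 members were not called. WRKY40 stood at 44.6 ± 5.13 CPM in OX and 103 ± 24.3 CPM in WT (SD, n = 3), which gave a log2 ratio of -1.21 ± 0.15 (SE, adjusted p = 5e-06). WRKY33 stood at 148 ± 27.6 CPM in OX and 259 ± 67.9 CPM in WT (SD, n = 3), or -0.81 ± 0.17 as a log2 ratio (SE, adjusted p = 0.0018). The libraries of the genotypes did not overlap for either gene, although the highest OX library of WRKY33 (178 CPM) lay close to the lowest WT library (181 CPM). Both calls held in all alternatives, with adjusted p up to 0.0041 for WRKY40 and 0.039 for WRKY33. With 0 higher and 2 lower of 9 members, the share called is set beside 14.6% of all tested loci called, 7.7% higher and 6.91% lower. WRKY22 differed by 0.53 ± 0.20 (SE, adjusted p = 0.088), and without WT 0 h replicate 1 by 0.84 (adjusted p = 0.0052, range 0.0052 to 0.37). Over all fits with 1 library left out the WRKY22 difference ran from 0.19 to 0.84. The remaining 6 members differed by -0.13 to 0.07, with adjusted p from 0.34 to 0.94. At this time the summed leaf mesophyll markers ran from 13100 to 17200 CPM in OX and from 9720 to 15500 CPM in WT, and the summed root markers from 1330 to 1510 CPM and from 1590 to 2130 CPM. Of the 3 root markers 1 was called lower in OX and 0 of the 3 mesophyll markers were called; their part in the lower WRKY33 and WRKY40 levels was not tested.

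After elf18 the genotypes lay close together. At 1 h 1 of 9 members was called, beside 5.7% of all loci called, 2.79% higher and 2.9% lower. WRKY6 stood at 470 ± 35.8 CPM in OX and 614 ± 72.8 CPM in WT (SD, n = 3), which is a log2 ratio of -0.39 ± 0.09 (SE, adjusted p = 0.0087) with no overlap between the libraries. This call was lost without WT 1 h replicate 1 (0.064), WT 1 h replicate 2 (0.066) or OX 1 h replicate 1 (0.067), and over the alternatives the adjusted p ran between 0.00064 and 0.12. OX 1 h replicate 1 was also a library whose log2 counts fell with transcript length relative to its group, with a slope of -0.15 per doubling of length. WRKY40 and WRKY33 differed at 1 h by -0.19 ± 0.14 and -0.27 ± 0.17 (SE, adjusted p = 0.47 and 0.36), with overlapping libraries. At 6 h and 12 h edgeR called 0 of 9 members, beside 1.52% of all loci at 6 h (0.857% higher, 0.661% lower) and 1.65% at 12 h (0.923% higher, 0.723% lower), and DESeq2 also called 0. At an unadjusted p under 0.05 there were 2 members at 6 h, WRKY6 and WRKY11, and 0 at 12 h. The shares of all loci at that unadjusted cut-off and with DESeq2 are not given here. These counts therefore cannot be set against the shares above, which are of adjusted edgeR calls. Those shares are not fixed either, since fewer loci were called at 1 h and at 12 h in every fit with 1 library left out. The members' log2 fold changes ran from -0.39 to 0.11 at 1 h and from -0.27 to 0.12 at 12 h. At 6 h they ran from -0.34 to -0.02, so that all 9 were lower in OX by small amounts that were not called.

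**Figure D3:**
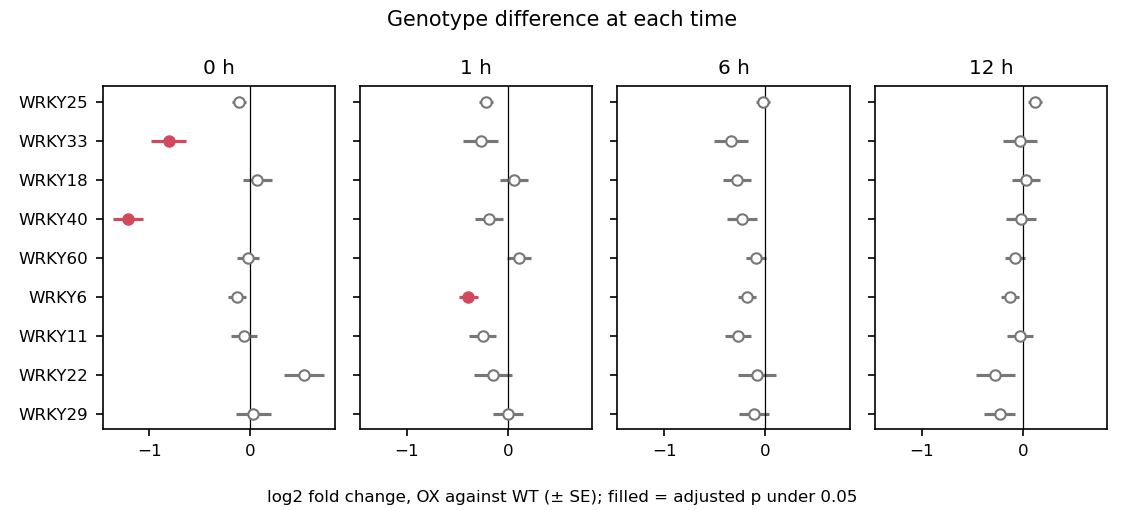
Log2 fold change of OX against WT at the 4 times for the 9 WRKY genes, with bars for the SE and filled red points for adjusted p under 0.05. WRKY40 (-1.21) and WRKY33 (-0.81) at 0 h and WRKY6 (-0.39) at 1 h are filled, and no point is filled at 6 h or 12 h.

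The response itself differed between the genotypes for WRKY40. From 0 h to 1 h it rose more in OX than in WT by 1.02 ± 0.21 (SE of the interaction, n = 3, adjusted p = 0.0019). The excess was 0.98 ± 0.21 for the change to 6 h and 1.19 ± 0.21 for the change to 12 h (SE, adjusted p = 0.0054 and 0.0014). These 3 tests share the untreated libraries, where the OX level was lower, while the treated levels of the genotypes were not called different. WRKY40 was the single member called in each of them, and higher in each. Of all loci 12.7% were called in the first of them (6.06% higher, 6.64% lower), 6.34% in the second (3.43% higher, 2.92% lower) and 5.52% in the third (3.07% higher, 2.45% lower). For WRKY33 the same differences were 0.54 ± 0.24, 0.47 ± 0.24 and 0.77 ± 0.24 (SE, adjusted p = 0.14, 0.27 and 0.056). Without WT 0 h replicate 2 the WRKY33 difference was called at 1 h (0.76, adjusted p = 0.022, range 0.022 to 0.28) and at 12 h (0.97, adjusted p = 0.0084, range 0.0084 to 0.17), and at 12 h also without OX 0 h replicate 2 (0.93, adjusted p = 0.029). For WRKY22 the difference was -0.68 and -0.79 on the log2 scale at 1 h and 12 h (adjusted p = 0.11 and 0.1), and -0.60 at 6 h (0.23). Without WT 0 h replicate 1 WRKY22 was called at all 3 times (adjusted p = 0.012, 0.026 and 0.0088, with an upper end of 0.45 over the alternatives). Over all fits with 1 library left out its difference ran from -0.97 to -0.33 at 1 h. At 6 h it ran from -0.91 to -0.26, and at 12 h from -1.11 to -0.47.

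Among the members, likeness of pattern is described by Pearson's r of log2 CPM over the 24 libraries. The libraries form 8 groups of 3 that share genotype, treatment and time, and the members share each library and its total, so r mainly compares group levels and carries no p. WRKY6 and WRKY25 were most alike (r = 0.99), followed by WRKY6 and WRKY22 (0.98), and WRKY33 and WRKY40 (0.97). WRKY29 was most like WRKY11 (0.96). WRKY60 had r between -0.49 and 0.33 with every other member, and WRKY18 between 0.27 and 0.61. Over the 17700 loci whose log2 CPM averaged at least 1, the most similar locus to WRKY6 was WRKY15 (0.994) and then BAK1 (0.993), the co-receptor kinase gene of EFR. The locus most like WRKY11 was WRKY27 (0.989), and the locus most like WRKY18 was WRKY46 of group III (0.921). For WRKY33 it was WRKY40 (0.972) and then the zinc finger gene CZF1 (0.957), and for WRKY40 the exocyst subunit gene EXO70H7 (0.972) and then WRKY33. WRKY25 was most like RABH1c (0.990), WRKY22 like AT2G24600 (0.993), WRKY29 like AT5G44910 (0.986), and WRKY60 like AT4G12500 (0.991) and EARLI1 (0.989).

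**Figure D4:**
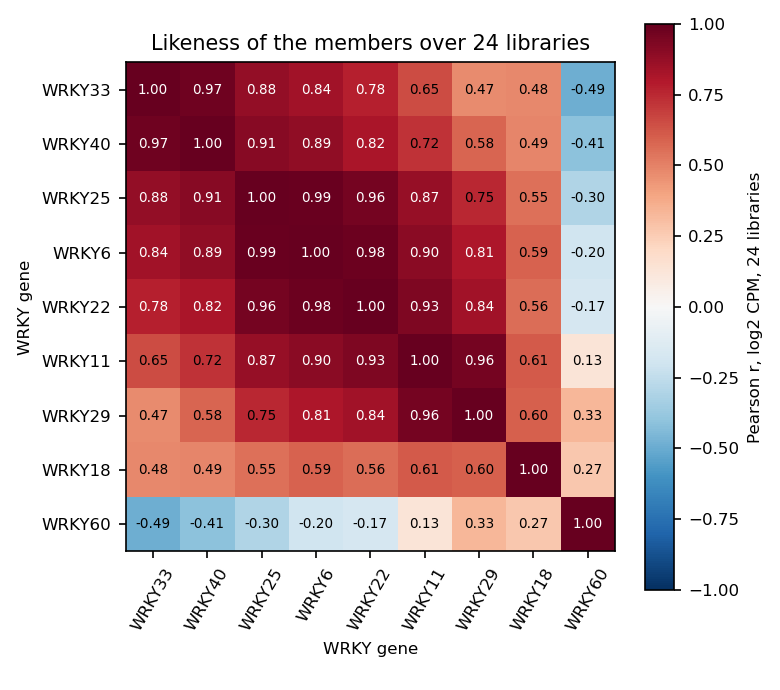
Pearson's r of log2 CPM over 24 libraries between each pair of the 9 WRKY genes (rows and columns, red positive and blue negative, values printed in the cells). WRKY33 and WRKY40 stand at 0.97, and WRKY60 has values between -0.49 and 0.33 with the others.

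The rest of the WRKY family gives the background for these courses. Of 43 other WRKY genes of groups I and II that were tested, 22 were higher and 10 lower at 1 h in WT, with a median log2 fold change of 0.30, and 24 were higher and 11 lower at 12 h, with a median of 0.43. Of all loci 35.2% were higher and 32.6% lower at 1 h, and 35.2% and 37.4% at 12 h. Of 10 group III genes 7 were higher and 2 lower at 1 h (median 1.60), and 10 were higher at 12 h (median 3.33). The next 3 genes are relatives of members, chosen after their values were seen. In WT at 1 h WRKY17, the relative of WRKY11, rose by 2.09 ± 0.08 (SE, adjusted p = 1.1e-15), and WRKY27 of group IIe by 2.21 ± 0.10 (SE, adjusted p = 6.7e-15). WRKY26, a group I relative of WRKY25 and WRKY33, rose by 1.16 ± 0.12 in WT (SE, adjusted p = 2.6e-08) and by 0.33 ± 0.12 in OX (adjusted p = 0.021), and its response differed between the genotypes by -0.83 ± 0.17 (SE, adjusted p = 0.0025). Between OX and WT at 0 h 5 of these 43 genes were higher and 1 lower, beside 7.7% and 6.91% of all loci. Of the 10 group III genes 3 were higher and 0 lower, beside the same shares. WRKY59 was highest among these differences, at 2.21 ± 0.26 (SE, adjusted p = 2.5e-06), and WRKY48 was the lower one, at -0.91 ± 0.14 (SE, adjusted p = 0.0001).

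A further list holds kinases and partner proteins that act on these WRKY proteins or upstream of them in the kinase cascades. They are MEKK1, the kinase kinases MKK1, MKK2, MKK4 and MKK5, and the kinases MPK3, MPK4 and MPK6. The others are the calcium-dependent kinases CPK5 and CPK6, and the VQ motif proteins MKS1, SIB1 and SIB2. At 1 h in WT 11 of these 13 were higher and 2 lower, with a median of 0.67, beside 35.2% of all loci higher and 32.6% lower with a median of 0.01. MKS1, whose product is a substrate of MPK4 and binds WRKY25 and WRKY33, rose by 2.33 ± 0.15 (SE, n = 3, adjusted p = 9.8e-12), and MPK4 by 1.44 ± 0.09 (adjusted p = 7.5e-12). SIB2, whose product binds WRKY33, fell by 1.56 ± 0.11 (SE, adjusted p = 2.3e-11). At 0 h 1 of 13 was higher in OX and 3 lower, beside 7.7% and 6.91% of all loci. SIB1, for the other WRKY33-binding VQ protein, was among the lower, at 12.2 CPM in OX and 36.4 CPM in WT, or -1.57 ± 0.14 on the log2 scale (SE, adjusted p = 1.2e-07). MKK4 was lower as well (-0.41 ± 0.09, SE, adjusted p = 0.0036), and MKK1 was higher (0.60 ± 0.09, SE, adjusted p = 5.4e-05). SIB2 was lower by a smaller difference (-0.35 ± 0.10, SE, adjusted p = 0.021) that was lost in 5 alternatives, among them those without WT 0 h replicate 1 (0.081), OX 0 h replicate 1 (0.11) or OX 0 h replicate 3 (0.1). The change of SIB1 to 1 h differed between the genotypes by 1.77 ± 0.21 (SE, adjusted p = 4.6e-06), and that of MKK4 by 0.61 ± 0.13 (adjusted p = 0.0028). Both differences use the untreated libraries, where the OX level of each gene was lower. At 1 h 0 of the 13 genes were called between OX and WT, beside 5.7% of all loci. Their log2 fold changes at that time ran from -0.25 to 0.23.

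More of the genes known as targets of WRKY33 were called higher at 12 h than at 1 h. They are the camalexin and cyano-indole genes PAD3, CYP71A12, CYP71A13 and CYP82C2, the ethylene synthesis genes ACS2 and ACS6, and NCED3, an abscisic acid synthesis gene that WRKY33 is known to repress. NCED5 of the same list was not analysed here. At 1 h in WT 3 of 7 were higher and 2 lower (median -0.29), shares near those of all loci (35.2% higher, 32.6% lower). In OX at 1 h 5 of 7 were higher and 2 lower (median 0.82), beside 35.2% and 33.7% of all loci. At 12 h all 7 were higher in WT (median 1.98) and in OX (median 3.04), beside 35.2% and 34.9% of all loci. ACS2 rose by 3.44 ± 0.15 and CYP71A12 by 3.28 ± 0.15 at 12 h in WT (SE, n = 3, adjusted p = 1.1e-14 and 1.3e-14). Before treatment 0 of the 7 were higher in OX and 3 lower (7.7% and 6.91% of all loci), namely ACS6, PAD3 and ACS2. ACS6 was at 22.3 CPM in OX and 72.1 CPM in WT (-1.68 ± 0.14, SE, adjusted p = 4.8e-08), and PAD3 at 62.9 and 99.3 CPM (-0.66 ± 0.15, SE, adjusted p = 0.0038). ACS2 was lower by 0.72 ± 0.18 on the log2 scale (SE, adjusted p = 0.0071). The call was lost without OX 0 h replicate 1 (0.065) and in a fit on the compared groups alone (0.059).

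Of 6 tested genes known as targets of WRKY18, WRKY40 and WRKY60, 4 were higher and 0 lower at 1 h in WT. Of all loci 35.2% were higher and 32.6% lower at that time. At 12 h in WT 2 of the 6 were higher and 4 lower, beside 35.2% and 37.4% of all loci. ABI4 of that list was not analysed here. RRTF1, a redox-responsive transcription factor gene, and JAZ8, a jasmonate repressor gene, are known to be bound by WRKY40. Before treatment RRTF1 was at 0.86 CPM in OX and 5.57 CPM in WT (-2.76 ± 0.39, SE, adjusted p = 2.9e-05), and JAZ8 at 3.49 and 11.1 CPM (-1.68 ± 0.27, SE, adjusted p = 0.00012). Of the 6 genes of this list 1 was higher at 0 h in OX, 2 were lower and 3 were not called, with a median log2 fold change of 0.17, beside 7.7% of all loci higher and 6.91% lower. ABF4 was higher at 0 h in OX (0.32 ± 0.09, SE, adjusted p = 0.012). The call was lost without WT 0 h replicate 2 (0.052) and with libraries thinned to the smallest total (0.061). EDS1, a regulator of salicylic acid defence, rose in WT at 12 h by 1.64 ± 0.07 (SE, adjusted p = 1.3e-14). FRK1, a receptor kinase gene known to respond to WRKY6, WRKY22 and WRKY29, rose in WT by 2.65 ± 0.28 in the first hour (SE, adjusted p = 2.3e-08) and stood 5.23 ± 0.31 above 0 h after 12 h (adjusted p = 1.2e-12). Its level at 12 h, 552 CPM in WT, was thus far above that at 0 h, 14.6 CPM. In untreated OX it stood at 27.3 CPM (0.90 ± 0.27, SE, adjusted p = 0.026). This call was lost without WT 0 h replicate 2 (0.17) or 3 (0.099) or OX 0 h replicate 1 (0.076) or 2 (0.086). A fit on the compared groups alone lost it too (0.11). FRK1 belongs to a list of 3 targets of WRKY6, WRKY22 and WRKY29, of which 2 were higher and 1 lower at 1 h in WT and 1 higher and 1 lower at 12 h, counts too small to set against the shares over all loci. RAV1, known to be repressed by WRKY6, was higher at 1 h by 1.46 ± 0.13 in WT (SE, adjusted p = 2.7e-09), and PHO1, a phosphate exporter gene known to be repressed by WRKY6, fell by 0.37 ± 0.09 (SE, adjusted p = 0.0008).

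In the annotation WRKY33 overlaps 2 loci on the opposite strand, WRKY29 1 and WRKY40 1, and 1 counted locus each lies opposite WRKY33 and WRKY40. The library kit keeps the strand, but whether the counting used it is not stated, so reads of these overlaps cannot be told apart. The other 6 members have 0 overlapping loci.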

How the data were processed

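PolyA RNA of whole seedlings was sequenced with a strand-keeping kit as single reads, 3 biological replicates a group, per the labels' protocols. The authors deposited read counts per locus for 24 libraries, with no scaling, and 8 group FPKM values per locus. The submitters' processing notes name the build TAIR10 and the tools Cuffdiff, DESeq2, Cufflinks 2.1.1 and TopHat2 2.0.8. No source used here states which tool counted the reads or whether it used the strand. Of 21407 loci, 21330 matched the RefSeq annotation of TAIR10.1, which supplied names, lengths and promoters.

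Counts were scaled by TMM and tested with edgeR 4.0.16 (quasi-likelihood test, 8 group means over all 24 libraries, R 4.3.3). Loci were kept by filterByExpr with a minimum count of 10, and p-values were adjusted by Benjamini-Hochberg over 21015 loci with a threshold of 0.05. Library totals of 18767661 to 85230211 put at least 82 counts behind each member value. The differences between replicates exceeded counting noise in every group (chi-square per degree of freedom at least 1.62). For OX and WT at 1 h all 3 same-numbered pairs of libraries deviated together (r = 0.223, 0.130 and 0.125). This pairing was read from the data and not from the labels. The main fit held no replicate term, so each adjusted p given for OX against WT at 1 h treats the libraries as unpaired. A replicate block over all 24 libraries, fitted as an alternative, changed no member's call in that comparison. The procedure was tested on simulated data. Alternatives were a replicate block, RLE size factors, no filter, DESeq2 1.42.0, fits on the compared groups alone, thinned libraries, leaving out each library, and leaving out 3 libraries with a steep length trend.

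The 9 members and the gene lists were chosen with earlier results of these data known. From each list up to 4 genes with the smallest adjusted p in a comparison are named, with those of the opposite direction. A few further list genes and WRKY relatives were named after their values were seen.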

Additional observations from a re-analysis of the deposited data

Results flagged for a closer look

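The response of WRKY40 to treatment differed between the genotypes in a test of the difference itself. Its log2 change from 0 h was larger in OX than in WT by 1.02 at 1 h, 0.98 at 6 h and 1.19 at 12 h (edgeR's quasi-likelihood test, adjusted p = 0.0019, 0.0054 and 0.0014). Over the alternatives the adjusted p reached 0.018, 0.026 and 0.0067. The 3 tests share the 6 untreated libraries and are therefore 1 pattern. In those libraries WRKY40 ran from 40.7 to 50.4 CPM in OX and from 78.8 to 127 CPM in WT, whereas the treated libraries of the genotypes overlapped at 1 h, 6 h and 12 h.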

How the results depend on the processing

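Of 153 member results 79 were called, 70 of them in every alternative; 9 were lost and 15 gained in at least 1. Of 2151 alternative values, 76 changed sign, and 51 of these did so also as rounded values. The number of members called moved as follows. From 6 h to 12 h in WT it was 5 with the compared groups alone, 4 with DESeq2 and with thinned libraries, and 2 to 3 with 1 library left out, in place of 3. For OX against WT at 1 h it was 2 with DESeq2, 0 with the compared groups alone, 0 without the 3 steep libraries and 0 to 2 with 1 library left out, in place of 1. At 12 h it was 1 with the compared groups alone, in place of 0. For the genotype difference in the change to 12 h it was 2 with DESeq2 and 2 with the replicate block, in place of 1, and with 1 library left out 1 to 2 for each of the changes to 1 h, 6 h and 12 h. Leaving out 1 library also gave 4 to 6 from 6 h to 12 h in OX (in place of 6) and 7 to 9 from 1 h to 6 h (9). In WT it gave 6 to 8 from 0 h to 6 h (7) and 7 to 8 from 1 h to 6 h (7). From 0 h to 1 h it gave 8 to 9 in each genotype (9), and for OX against WT at 0 h 2 to 3 (2). With the compared groups alone WRKY18 lost its WT calls at 1 h and 6 h, the latter also with thinned libraries. From 6 h to 12 h in OX, WRKY29 gained a call with the compared groups alone, and WRKY33 lost its call without the 3 steep libraries. The number of all loci called between OX and WT moved as well, and the shares given above are those of the main fit. With 1 library left out it was 79 to 146 at 12 h, in place of 346, and 103 to 370 at 6 h, in place of 319. At 1 h it was below the main count in each such fit, down to 472, and at 0 h it moved in both directions. Of the members' promoters 7 hold the core, against 4 the full word.

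Every sign change concerned a value near 0 that was not called. Without the 3 steep libraries WRKY40 was 0.01 at 12 h in WT, WRKY18 0.03 at 6 h in OX, and OX against WT was 0.07 for WRKY29 at 1 h, 0.02 for WRKY25 at 6 h and -0.02 for WRKY18 at 12 h. The difference in the change to 1 h was then 0.10 for WRKY18 and 0.04 for WRKY29, and that to 12 h was 0.03 for WRKY6 and -0.02 for WRKY11. With no filter WRKY18 was 0.00 at 6 h in OX, WRKY29 0.02 for OX against WT at 1 h, and WRKY18 0.01 in the change to 1 h. With thinned libraries these were 0.02 for WRKY18 at 6 h, 0.05 for WRKY18 in the change to 1 h and 0.01 for WRKY6 in the change to 12 h. With the compared groups alone WRKY29 was -0.00 at 0 h and 0.02 at 1 h for OX against WT, and WRKY18 0.02 in the change to 1 h. With the replicate block WRKY29 at 1 h and WRKY18 in the change to 1 h were 0.00. The causes were not tested.

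With 1 library left out, 12 h against 0 h in WT ran from -0.30 to 0.03 for WRKY33 and from -0.18 to 0.16 for WRKY40. WRKY18 ran from -0.21 to 0.11 for 6 h against 1 h in WT and from -0.05 to 0.05 for 6 h against 0 h in OX. OX against WT at 0 h ran from -0.20 to 0.09 for WRKY11, -0.03 to 0.22 for WRKY18, -0.04 to 0.10 for WRKY29 and -0.11 to 0.11 for WRKY60. At 1 h it ran from -0.05 to 0.28 for WRKY18 and -0.20 to 0.23 for WRKY29, at 6 h from -0.08 to 0.03 for WRKY25, and at 12 h from -0.02 to 0.05 for WRKY18 and -0.11 to 0.01 for WRKY33. The genotype difference in the change to 1 h ran from -0.14 to 0.21 for WRKY18 and -0.23 to 0.20 for WRKY29. In the change to 6 h it ran from -0.12 to 0.02 for WRKY6 and -0.20 to 0.03 for WRKY60. In the change to 12 h it ran from -0.05 to 0.06 for WRKY6, -0.12 to 0.17 for WRKY11, -0.19 to 0.06 for WRKY18 and -0.20 to 0.02 for WRKY60.

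Same-numbered deviations correlated with a median r of 0.0506 (33 of 84 pairs over 0.1), and those of different number with -0.0323 (30 of 168). Of 168 best matches 88 (52.4%) had the same number, out of 3 candidates each. By the rule that each of the 3 same-numbered pairs be over 0.1, the numbers paired only OX with WT at 1 h. With the replicate block WRKY33 was called in the change to 12 h (0.79, adjusted p = 0.043, range over the alternatives 0.0084 to 0.17), and no other member gained or lost a call.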
